A study of Mus musculus with 36 samples.

Results

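The comparison described here is that of ligatured with unligatured knock-in mice fed a 60% fat diet (60% HFD). Its members are the 6 libraries of those mice among the 36 of the series: 3 labelled with a ligature for 2 weeks and 3 without a ligature label. The series holds RNA of epididymal white adipose tissue (eWAT), the visceral fat pad beside the testis, from male mice, 1 library per mouse, in 12 groups of 3 defined by genotype, diet and ligature. A ligature is a silk thread tied round an upper molar, which gathers bacteria and inflames the gum, and the question the comparison addresses is whether this inflammation in the mouth goes with a change in distant fat.

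The Adipoq-CCL19-KI mice carry Ccl19, a chemokine gene, at the Adipoq locus, so that it is expressed where adipocytes express Adipoq. They were bred as a homozygous line apart from the wild-type (WT) C57BL/6 mice, and a difference between the genotypes cannot be told apart from one between the lines. Both groups compared here are labelled knock-in (the values of 1 library go against that label, as given below), were fed the 60% HFD from 6 weeks of age for 10 weeks, and differ by the ligature, which was placed at 14 weeks of age in the ligatured mice. The unligatured mice have no label for a sham operation. For reference, the text gives the values of the 6 WT libraries on the same diet, 3 with and 3 without a ligature, and tests the ligature effect against that in WT mice on the 60% HFD and that in knock-in mice on a 40% HFD, with 3 libraries in each of those groups.

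Values are read counts scaled to library size (normalized CPM) as deposited, and are given in the order of the replicate numbers, unligatured first. The 6 libraries held 13461511 to 21581595 reads, so that 1 read stands for 0.0490 to 0.0745 CPM and a floor of 3 reads for 0.147 to 0.224 CPM. These floors cover counting error alone. A gene is called here when the unadjusted p of limma, a linear model fitted to all 36 libraries, is at most 0.05 and the ratio is at least 1.5 or at most 0.67, which are the criteria the study states. Where an adjusted p is given, it is adjusted over the 17852 genes tested. An exact permutation test of 3 against 3 libraries cannot go below a two-sided p of 0.1, so none was used.

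The label of 1 library goes against its values. Ccl19 was at 5.57, 11.8 and 0.687 CPM in the unligatured libraries and at 22.7, 11.8 and 27.1 CPM in the ligatured ones. Gm2564, an annotated near-identical copy of Ccl19 that shares reads with it, was at 11.6, 15.0 and 0 CPM and at 64.1, 28.2 and 55.1 CPM, so that the levels of both genes are uncertain. The third unligatured library, written here as the library labelled unligatured replicate 3, is thus at the WT level for both. Over the other 17 libraries labelled knock-in, Ccl19 was at 5.57 to 34.6 CPM with a median of 16.4, and over 17 labelled WT at 0.507 to 4.51 CPM with a median of 1.21. Hist1h4m, a histone gene, was at 6.97 to 40.0 CPM in those 17 knock-in libraries, at 0 to 0.568 CPM in the WT ones and at 0 in that library. The reverse was seen in 1 library labelled WT, the second of the unligatured mice on normal diet, which held Ccl19 at 19.2 CPM, Gm2564 at 41.9 CPM and Hist1h4m at 24.4 CPM. That library belongs to neither group compared, but to the 36 of the fit. Whether these 2 libraries were exchanged, in which case the one labelled unligatured replicate 3 would come from a WT mouse on normal diet, was not tested. Counts of called genes and fold changes below are therefore given with and without the library labelled unligatured replicate 3 for the main results, and its own value is the last of the unligatured ones throughout. Adipoq, the adiponectin gene, was at 300.1, 417 and 1095 CPM without and 929, 470 and 1178 CPM with a ligature, against 1435 to 3059 CPM in the 6 WT libraries. The ligatured and unligatured values overlap, and all 6 libraries labelled knock-in lay under all 6 WT ones.

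**Figure D1:**
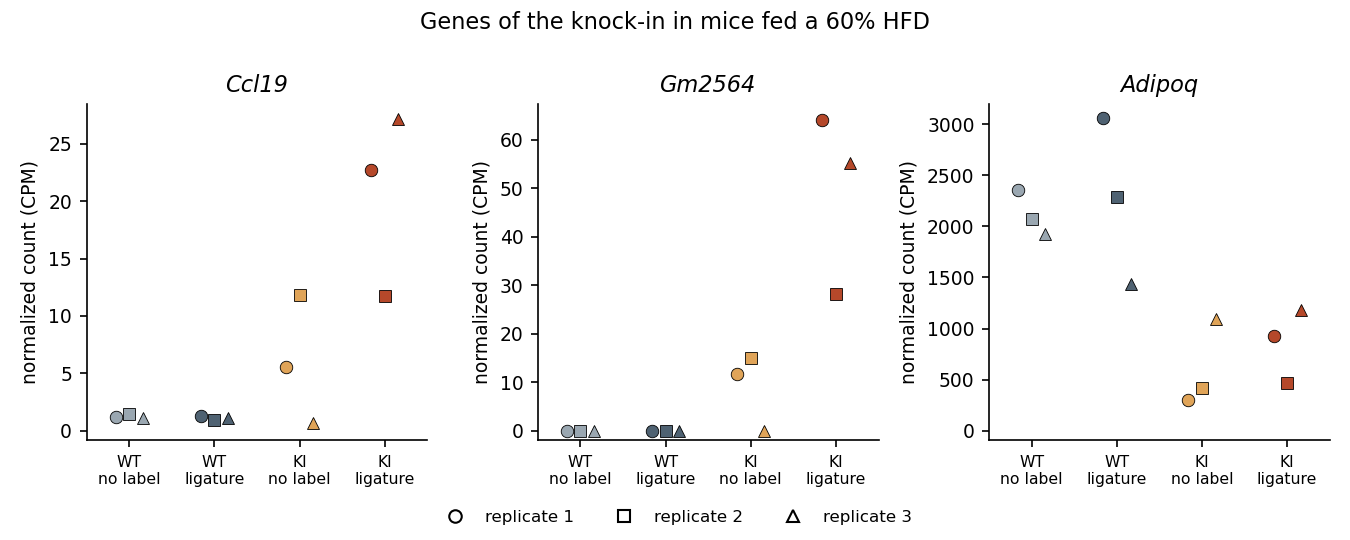
Level of Ccl19, its copy Gm2564 and Adipoq (CPM; each point 1 library, 3 per group) in the 4 groups fed a 60% HFD. The library labelled unligatured replicate 3 holds 0.687 CPM of Ccl19 and 0 of Gm2564.

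The 3 unligatured libraries also differ from one another, and lie apart from the rest on the first principal component. On the first principal component of the 12 libraries of mice fed a 60% HFD (53.5% of the variance) they lay at 100.4, 58.1 and 117.2, and the ligatured ones at -36.6, -32.2 and 18.7, beside the 6 WT libraries at -59.6 to -16. The second component (17.1%) set unligatured replicate 1, at 81.6, against the library labelled unligatured replicate 3, at -75.6. Correlations of log2 values across genes, which are not independent replicates, were 0.862 to 0.898 among the unligatured libraries and 0.957 to 0.98 among the ligatured ones. Unligatured replicate 2 correlated more with ligatured replicates 1, 2 and 3 (0.913, 0.924 and 0.95) than with the other unligatured libraries (0.895 and 0.898). Ligatured replicates 1 and 2 lay within the WT range of the first component, ligatured replicate 3 above it, and the 3 unligatured libraries farther out.

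Genes of organs next to the fat pad mark the unligatured libraries, each in its own way. The 25 genes of the epididymal epithelium list, which codes for secreted sperm-coating proteins of the duct beside the pad, summed to 375.5, 13520 and 12750 CPM without a ligature and to 3.63, 2.39 and 1.49 CPM with one. The 14 germ cell genes summed to 1335, 42.9 and 233.1 CPM and to 35.9, 28.0 and 35.9 CPM. Unligatured replicate 1 was thus highest in germ cell genes, while unligatured replicate 2 and the library labelled unligatured replicate 3 were highest in epididymal genes. Unligatured replicate 2 held 3636 CPM of Gpx5 and 1730 CPM of Lcn8, both secreted by the first segment of the epididymis, where the other 5 libraries held at most 0.491 and 0.149 CPM. In the library labelled unligatured replicate 3, Crisp1, a sperm-coating protein of the epididymis, was at 9541 CPM, and the most abundant gene was Akr1b7, an aldo-keto reductase, at 38410 CPM or 4.03% of its signal (named after its values were seen). In the opposite direction, the 24 hepatocyte genes summed to 2562, 3736 and 2814 CPM without and 36270, 31120 and 6550 CPM with a ligature, against 18590 to 70680 CPM in WT. Without Trf, which fat also expresses, and Cyp2e1, chosen after their values were seen, the sums were 1075, 2020 and 30.5 CPM and 29240, 24860 and 3142 CPM, so that the unligatured libraries differ widely. The 16 adipocyte markers summed to 11350, 14330 and 15790 CPM and to 24530, 16630 and 28250 CPM, which do not overlap. The part of these other tissues in the results that follow was not tested.

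**Figure D2:**
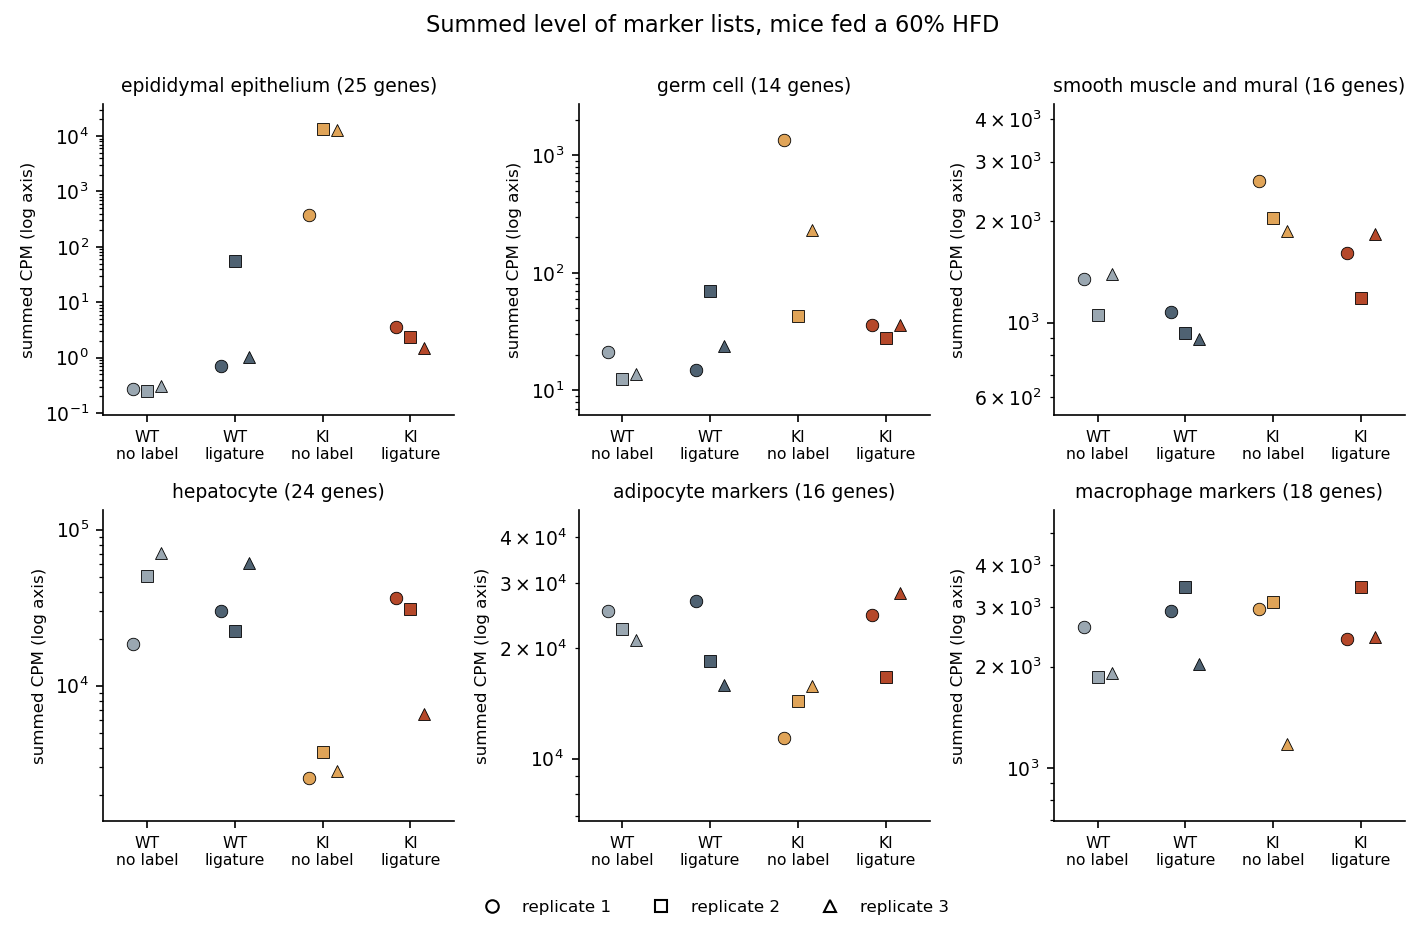
Summed level (CPM, log axis) of 6 marker lists in each library of mice fed a 60% HFD; each point is 1 library, 3 per group. Epididymal genes reach 13520 and 12750 CPM in 2 libraries labelled unligatured knock-in (the second of these being the one with WT levels of Ccl19), and hepatocyte genes lie at 2562 to 3736 CPM in all 3 of them, of which Trf and Cyp2e1 make up 58.0, 45.9 and 98.9%.

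White adipocytes take up fatty acids, join them to glycerol in a single large lipid droplet and release them again by lipolysis, under the transcription factors PPARG and C/EBPA, which switch on most of the enzymes and droplet proteins involved. Insulin drives storage and restrains release, and a pad strained by a rich diet typically loses part of this programme while macrophages, complement and matrix proteins accumulate. CCL19 binds CCR7 and draws dendritic cells and T cells, and inflammation around a tooth can act on other organs through cytokines, which induce acute phase proteins in the liver.

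Across the genome, 3321 of 17852 genes (18.6%) were called between ligatured and unligatured knock-in mice, 1330 higher (7.45%) and 1991 lower (11.2%) with the ligature. An adjusted p below 0.05 in limma was reached by 1011 (5.66%), 272 higher (1.52%) and 739 lower (4.14%). The 3 ligatured values did not overlap the 3 unligatured ones at 4152 genes (23.3%), 2210 higher and 1942 lower. Without the library labelled unligatured replicate 3, 3304 of 17751 genes (18.6%) were called, 1241 higher (6.99%) and 2063 lower (11.6%), and the adjusted threshold was passed by 1373 (7.73%), 463 higher (2.61%) and 910 lower (5.13%). Of the genes called with it, 2111 were called in the same direction without it, which is 63.6% of the first set and 63.9% of the second.

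Of the 1991 lower genes, 891 had a mean below 1 CPM in the ligatured libraries, while 161 of the 1330 higher genes had such a mean in the unligatured ones. As a share of all signal, the 1991 lower genes made up 6.26, 4.97 and 15.1% of the unligatured libraries and 1.48, 1.94 and 1.69% of the ligatured ones, and 1.54 to 2.17% of the WT ones. The 1330 higher genes made up 8.21, 9.09 and 9.28%, then 23.3, 21.7 and 16.8%, and 18.1 to 29.2% in WT. All 3 unligatured libraries lie outside the WT range for both sets, while ligatured replicate 1 lies under it for the lower genes and ligatured replicate 3 for the higher ones.

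How many genes pass the adjusted threshold depends on single libraries. Leaving out ligatured replicate 1 gave 27, ligatured replicate 2 gave 569, ligatured replicate 3 gave 223 and unligatured replicate 2 gave 1917, against 1011 with all. In a limma fit of the 6 libraries alone the count was 0, with 2391 genes at an unadjusted p below 0.05, where edgeR gave 2008 and DESeq2 3029 on reads recovered from all 36 libraries. The share of called genes that were higher was 40.0%, but 55.7% in a fit of the 12 libraries of mice fed a 60% HFD and 65.1% in a fit of the 6 alone, where 15990 and 15270 genes pass the filter on low values. With the 17852 genes kept it was 50.2% and 63.2%, and with all 36 libraries and those smaller sets of genes 47.2% and 47.9% (alternatives chosen after seeing the data).

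**Figure D3:**
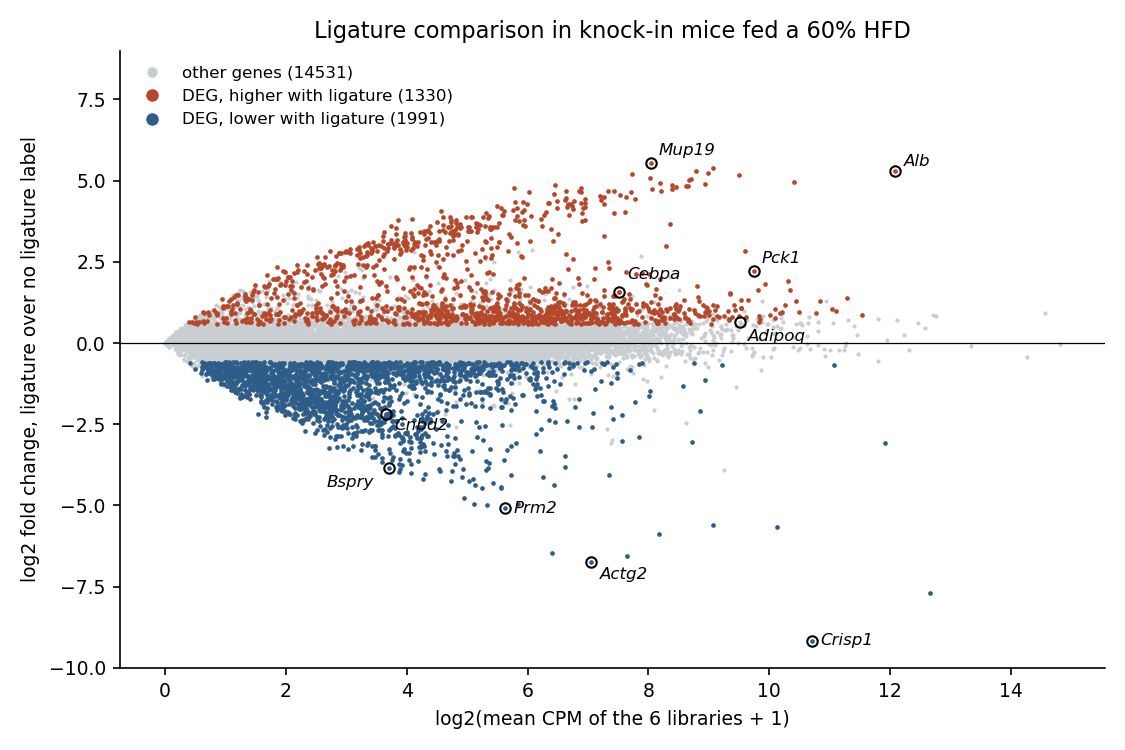
Log2 fold change of ligatured over unligatured knock-in mice (3 against 3 libraries) against the mean level of the 6 libraries (log2 of CPM plus 1), 1 point per gene, 17852 genes. The 1330 called higher and 1991 called lower are coloured, and some genes described in the text are named.

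Many genes of the adipocyte programme were called higher in the ligatured mice. Of 16 adipocyte markers, 9 were called higher (56.2%, against 7.45% of all genes) and 0 lower, with a median log2 fold change of 0.81 against -0.02 over all genes tested. Of 15 adipocyte transcription factors, 9 were called higher (60.0%) and 0 lower, with a median of 0.78. Without the library labelled unligatured replicate 3, the counts were 10 and 9 and the medians 1.13 and 1.10. Single libraries matter for the counts: 5 markers were called without unligatured replicate 1 and 5 without ligatured replicate 3, and 5 transcription factors without unligatured replicate 1 and 5 without ligatured replicate 1. In bulk tissue, fewer cells of a type and less RNA per cell cannot be told apart.

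Cebpa, a transcription factor that completes adipocyte differentiation, was at 55.0, 101.4 and 127.9 CPM without a ligature and at 274, 278 and 253 CPM with one. All 3 ligatured libraries were above all 3 unligatured ones and inside the WT range of 242 to 354 CPM, under which every unligatured library lay. Its log2 fold change was 1.57 (SE 0.26) with a limma adjusted p of 0.00319, higher in 3 of 3 ligatured libraries, and 1.83 without the library labelled unligatured replicate 3 (adjusted p 5.31e-06 to 0.198 over the 15 alternatives, above 0.05 in the fit of the 6 libraries alone). Pparg, the master regulator of fat cells, was at 37.3, 53.4 and 62.3 CPM and at 120.1, 87.7 and 134.9 CPM. The groups do not overlap, with a log2 fold change of 1.16 (SE 0.33, limma adjusted p of 0.0392, 3 of 3 libraries higher) and 1.31 without the library labelled unligatured replicate 3. Nr1h3, which codes for the oxysterol receptor LXR alpha, was at 25.2, 41.0 and 29.4 CPM and at 67.8, 77.2 and 80.5 CPM. It too did not overlap, with a log2 fold change of 1.24 (limma adjusted p of 0.017, 3 of 3 libraries higher). The adjusted p of Pparg in limma was 0.146, 0.103 and 0.138, and that of Nr1h3 0.0727, 0.0626 and 0.0543, when ligatured replicate 1, ligatured replicate 3 or unligatured replicate 1 was left out, with all remaining ligatured libraries higher each time. Mlxipl, the carbohydrate-sensing factor ChREBP, was called as well, at 5.34, 11.7 and 14.3 CPM without and 53.9, 34.3 and 18.9 CPM with a ligature. Some classic adipocyte genes were not called: Lep, the leptin gene, was at 1618, 1779 and 1646 CPM and at 2547, 2728 and 2485 CPM, and Fabp4, the fatty acid carrier of fat cells, at 5391, 6067 and 3809 CPM and at 7462, 5099 and 8762 CPM. The Lep values do not overlap, while those of Fabp4 do.

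From each of 3 lists, 1 gene was taken: the member with the lowest adjusted p that has an entry in the RefSeq promoter table. The 250 bases before its start also had to hold at most 30 bases of annotated exon (Angptl4, Hadhb and Decr1 were passed over by this rule). These windows of 250 bases are shown. They are from build GRCm38.p6, 5′ to 3′ on the gene's own strand. Cebpa is from chr7:35119043-35119292 (plus strand). Pck1, the gene of an enzyme early on a path to glycerol phosphate for triglyceride, is from chr2:173152823-173153072 (plus strand). Hadh, a dehydrogenase of fatty acid oxidation, is from chr3:131272102-131272351 (minus strand). Capitals mark matches, on either strand, to 6 short motifs picked with these sequences in view: TATAAA (the TATA box), GGGCGG (the GC box), TGACGT (the core of a cAMP response element), CCAAT (a site of NF-Y), AGGTCA (a site of nuclear receptors) and TTGCNNAA (a C/EBP-type site).
Cebpa: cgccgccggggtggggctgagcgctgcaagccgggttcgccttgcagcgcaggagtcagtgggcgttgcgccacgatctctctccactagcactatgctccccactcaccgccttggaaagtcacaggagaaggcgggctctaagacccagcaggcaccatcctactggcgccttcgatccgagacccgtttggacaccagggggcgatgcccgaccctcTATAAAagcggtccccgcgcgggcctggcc
Pck1: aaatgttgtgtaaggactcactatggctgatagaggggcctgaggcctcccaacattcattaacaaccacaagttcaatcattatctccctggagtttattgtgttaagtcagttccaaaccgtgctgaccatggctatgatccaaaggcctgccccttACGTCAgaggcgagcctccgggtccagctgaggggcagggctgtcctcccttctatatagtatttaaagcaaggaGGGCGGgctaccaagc
Hadh: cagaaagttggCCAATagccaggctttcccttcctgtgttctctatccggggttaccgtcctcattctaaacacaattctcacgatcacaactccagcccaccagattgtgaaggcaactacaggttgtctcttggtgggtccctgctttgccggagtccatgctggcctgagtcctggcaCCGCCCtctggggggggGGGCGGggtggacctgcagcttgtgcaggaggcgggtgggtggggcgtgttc
Cebpa holds TATAAA from 30 to 25 bases before the start. Pck1 holds TGACGT, on the other strand, from 91 to 86 bases and GGGCGG from 16 to 11 bases before it. Hadh holds GGGCGG from 69 to 64, on the other strand, and from 52 to 47 bases before it, and CCAAT from 239 to 235 bases before it. No AGGTCA or TTGCNNAA is in these windows. Of 32817 promoters of the same length, 12.4% hold TATAAA, 32.7% GGGCGG, 6.46% TGACGT, 33.8% CCAAT, 14.0% AGGTCA and 9.57% TTGCNNAA. A match is a description of letters, and no binding was measured.

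Several genes that store fat were called higher. Of 18 genes of triglyceride synthesis and uptake, 10 were called higher (55.6%, against 7.45% of all genes) and 0 lower (median log2 fold change 0.88, and 1.2 with 10 called without the library labelled unligatured replicate 3). Pck1 was at 179.5, 374 and 389 CPM without a ligature and at 1459, 1614 and 1123 CPM with one, against 1131 to 3020 CPM in WT. No ligatured value reaches down to an unligatured one, and the lowest ligatured library was just under the WT range. Its log2 fold change was 2.22 (SE 0.59, limma adjusted p of 0.0293, 3 of 3 libraries higher), and 2.41 without the library labelled unligatured replicate 3. Gpd1, which makes glycerol phosphate from a glycolytic intermediate, was at 221, 432 and 376 CPM and at 1097, 788 and 982 CPM, a log2 fold change of 1.52 (limma adjusted p of 0.0399, 3 of 3 libraries higher). The adjusted p of both genes was above 0.05 in limma when any 1 ligatured library or unligatured replicate 1 was left out: for Pck1 0.118, 0.0730, 0.0631 and 0.104, and for Gpd1 0.156, 0.0607, 0.0841 and 0.143, with 3 of 3 or 2 of 2 libraries still higher. The acyltransferases Agpat2 and Dgat1, which add fatty acids to glycerol, were called with and without every single library, as were the phosphatase gene Lpin1 and Angptl4, an inhibitor of lipoprotein lipase. Lpl itself, the lipase that frees fatty acids from blood lipids, was not called, at 3595, 4401 and 5886 CPM against 9583, 5131 and 11730 CPM, where ligatured replicate 2 lay inside the unligatured range.

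Genes that make fatty acids were mixed. Of 19 genes of fatty acid synthesis, 8 were called higher (42.1%, against 7.45% of all genes) and 0 lower, with a median of 0.91. The count was 12 without the library labelled unligatured replicate 3, 4 without ligatured replicate 1, 4 without unligatured replicate 1 (where 2 were called lower) and 5 without unligatured replicate 2, and edgeR called 1 and DESeq2 2 lower. Me1 and Acss2, which supply reducing power and acetyl-CoA, were called whichever library was left out. Me1 was at 232, 253 and 476 CPM and at 702, 487 and 830 CPM, and Acss2 at 41.8, 52.4 and 107.6 CPM and at 180.5, 115.9 and 157.4 CPM. Neither overlaps. The synthase gene Fasn, at 574, 963 and 2003 CPM against 3891, 1450 and 2899 CPM, and the desaturase gene Scd1, at 11720, 12580 and 23940 CPM against 43390, 14480 and 39000 CPM, overlapped and were not called. Both were called higher without the library labelled unligatured replicate 3, the highest of the unligatured ones for each, and also without ligatured replicate 2, the lowest of the ligatured ones.

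Droplet and lipolysis genes followed the same direction, with 12 of 19 called higher (63.2%, against 7.45% of all genes) and 0 lower (median 0.92). The count was 10 without the library labelled unligatured replicate 3, 6 without ligatured replicate 1, 6 without ligatured replicate 3 and 4 without unligatured replicate 1. G0s2, an inhibitor of the triglyceride lipase ATGL, was at 37.7, 65.0 and 42.4 CPM and at 117.0, 100.4 and 160.4 CPM. The groups do not overlap, with a log2 fold change of 1.38 (SE 0.34, limma adjusted p of 0.0201, 3 of 3 libraries higher) and 1.30 without the library labelled unligatured replicate 3. Its adjusted p was 0.0848, 0.0747 and 0.0619 in limma without ligatured replicate 1, ligatured replicate 3 or unligatured replicate 1, all ligatured libraries still higher. Lipe, the hormone-sensitive lipase gene, was at 311.5, 439 and 686 CPM and at 1126, 626 and 1266 CPM, which overlap, and its call was lost without unligatured replicate 1. Ligatured replicate 2 was the lowest of the ligatured libraries for Lipe and for Plin1, a coat protein of the droplet, at 248, 437 and 592 CPM and at 1024, 637 and 1164 CPM.

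**Figure D4:**
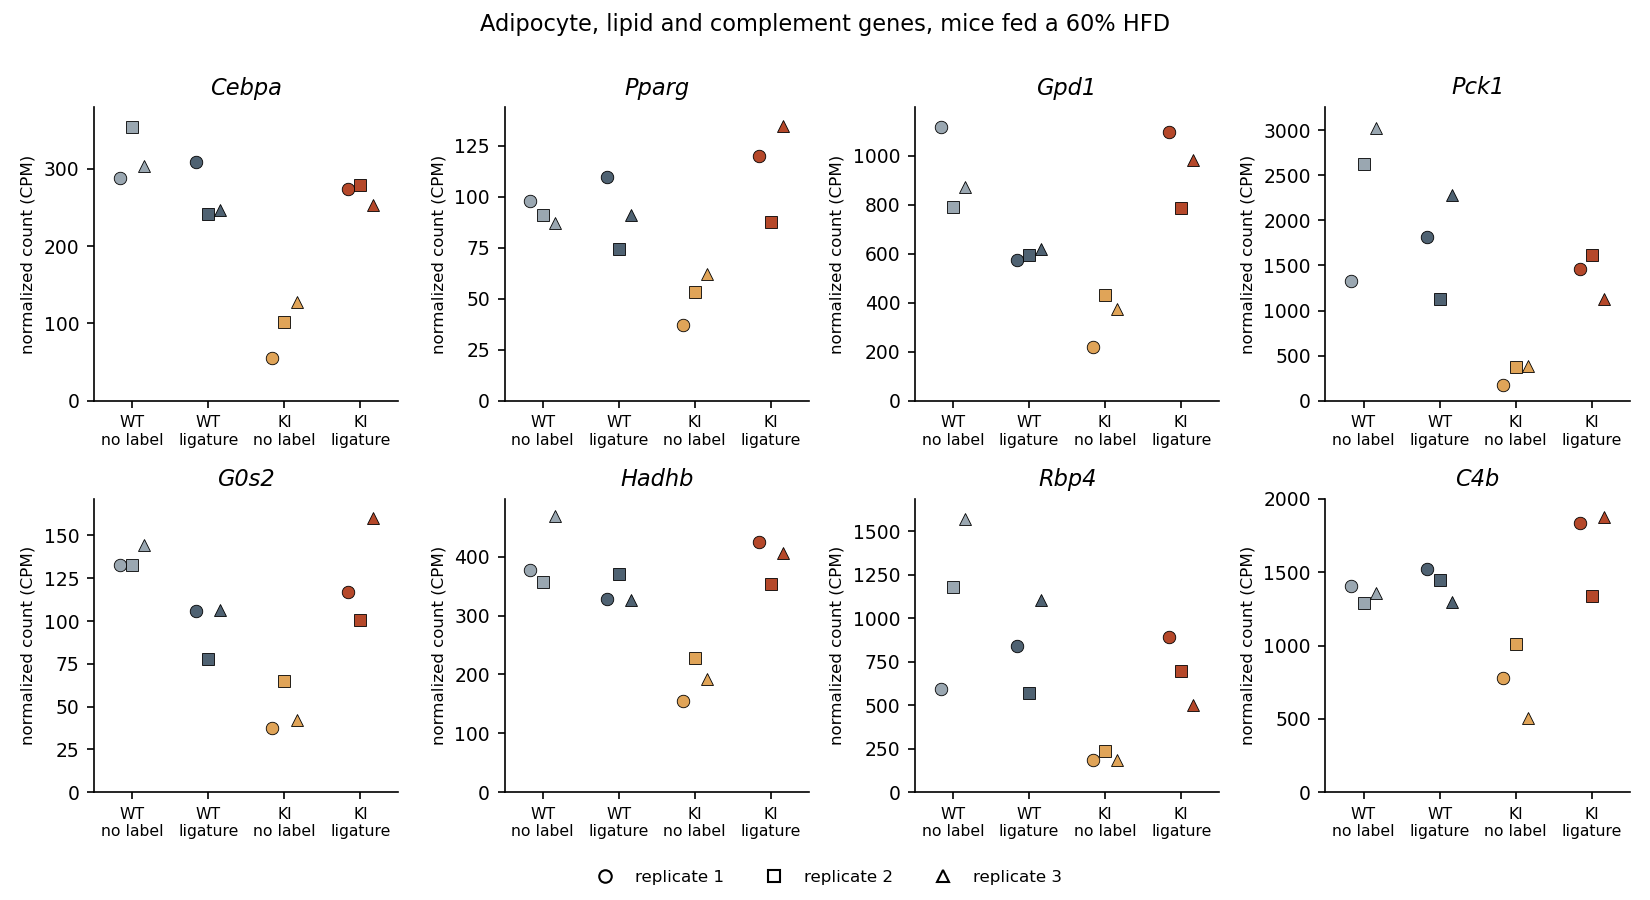
Level (CPM, linear axis) of 8 genes of adipocyte identity, lipid handling, adipokines and complement in each library of mice fed a 60% HFD. Each point is 1 library, 3 per group. Cebpa lies at 55.0 to 127.9 CPM in the libraries labelled unligatured and at 253 to 278 CPM in those labelled ligatured knock-in.

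Fatty acid oxidation, by which mitochondria and peroxisomes burn fat, was the lipid list with the most calls. Of 22 genes, 17 were called higher (77.3%, against 7.45% of all genes) and 0 lower, with a median of 1.16, and 15 with a median of 1.28 without the library labelled unligatured replicate 3. Leaving out any library left 12 to 17. Hadhb, a subunit of the mitochondrial trifunctional protein, was at 155.4, 227 and 192 CPM and at 425, 353 and 406 CPM. Without overlap, the ligatured values lie in the WT range of 326 to 468 CPM, and the log2 fold change was 1.05 (SE 0.26, limma adjusted p of 0.0228, 3 of 3 libraries higher), or 1.06 without the library labelled unligatured replicate 3. Its adjusted p in limma was 0.11, 0.0671 and 0.0732 without ligatured replicate 1, ligatured replicate 3 or unligatured replicate 1, the remaining ligatured libraries all higher. Hadh was at 147.5, 185.6 and 213 CPM and at 376, 365 and 349 CPM, and Decr1, which handles unsaturated fatty acids, at 105.9, 151.1 and 140.9 CPM and at 274, 246 and 317 CPM. Both were apart in the same way. The acyl-CoA dehydrogenase genes Acadl, Acadm, Acadvl and Acads, together with Hadha, Etfdh and Crat, were called whichever library was left out. Some of these enzymes are abundant in liver, and hepatocyte genes moved in the same direction (24 of 24 called higher), a part that was not tested.

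Respiratory chain genes of the nucleus followed in part. Of 26 genes of mitochondrial oxidative phosphorylation, 8 were called higher (30.8%, against 7.45% of all genes) and 0 lower (median 0.54), 14 without the library labelled unligatured replicate 3, but 1 without unligatured replicate 1 and 3 without unligatured replicate 2. Ndufs1, a subunit of complex I at 51.8, 54.8 and 72.8 CPM against 101.9, 103.7 and 109.1 CPM, was the member called in every case, and its values do not overlap. Of 15 genes of the mitochondrial genome, 0 were called by limma, and 0 by edgeR or DESeq2, with 0 at an unadjusted p below 0.05 in limma, and they summed to 19520, 33140 and 28400 CPM and to 27530, 20540 and 25720 CPM. Of 14 thermogenesis genes tested, 4 were called higher (28.6%) and 2 lower (14.3%, against 11.2% of all genes). The counts were 2 and 1 without the library labelled unligatured replicate 3, 0 and 1 without ligatured replicate 1, 2 and 1 without ligatured replicate 2, 1 and 1 without unligatured replicate 1, and 3 and 1 without unligatured replicate 2. Ucp1, the uncoupling protein of brown fat, was at 0, 0 and 0.0982 CPM and at 0.736, 0.222 and 0.149 CPM, under the filter on low values.

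Insulin signalling genes were called higher in 8 of 20 cases (40.0%, against 7.45% of all genes) and lower in 1 (5%, against 11.2%), with a median of 0.61. The counts higher were 10 without the library labelled unligatured replicate 3, 4 without ligatured replicate 1, 4 without ligatured replicate 3 and 3 without unligatured replicate 1, where 2 were called lower. Irs1, the adaptor that passes the insulin signal on from its receptor, was at 29.3, 23.2 and 28.9 CPM and at 78.4, 38.3 and 61.0 CPM. Again there is no overlap, ligatured replicate 2 being the lowest of its group, and the log2 fold change was 1.05 (SE 0.25, limma adjusted p of 0.019, 3 of 3 libraries higher) or 1.10 without the library labelled unligatured replicate 3. Its adjusted p in limma was 0.137 without ligatured replicate 1 and 0.0653 without ligatured replicate 3, with 2 of 2 libraries higher. Foxo1, a transcription factor that insulin keeps out of the nucleus, was at 49.5, 59.6 and 55.9 CPM and at 95.8, 104.1 and 91.6 CPM. Slc2a4, the insulin-driven glucose transporter GLUT4, was at 16.4, 26.5 and 40.3 CPM and at 63.8, 35.7 and 83.7 CPM, and its call was lost without ligatured replicates 1 or 3 or unligatured replicates 1 or 2. Tbc1d1, which holds back glucose transporters, was the gene called lower, at 43.5, 46.6 and 192.0 CPM against 23.3, 24.6 and 22.8 CPM. Its high value sits in the library labelled unligatured replicate 3.

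Among secreted factors of fat, 3 of 15 adipokines were called higher (20.0%, against 7.45% of all genes) and 0 lower, each whichever library was left out, and 6 without the library labelled unligatured replicate 3. Rbp4, the retinol carrier made by liver and fat, was at 182.5, 237 and 182.9 CPM and at 891, 698 and 502 CPM. Nrg4, an adipocyte growth factor that acts on liver, was at 13.3, 18.8 and 21.4 CPM and at 43.3, 24.6 and 54.6 CPM, and Agt, the angiotensin precursor, at 51.2, 37.7 and 58.2 CPM and at 183.5, 147.3 and 102.7 CPM. None of the 3 overlaps. In 16 glucocorticoid targets, 3 were called higher (18.8%, against 7.45% of all genes). Among them were Nr3c1, the glucocorticoid receptor gene, at 111.4, 118.3 and 122.9 CPM against 192.0, 164.4 and 195.6 CPM, and Hsd11b1, which regenerates the active hormone in fat, at 45.4, 58.3 and 20.2 CPM against 130.5, 125.2 and 115.4 CPM. Both pairs of groups are apart, the lowest Hsd11b1 value being in the library labelled unligatured replicate 3. Angptl4 is the other one, and the 1 gene called lower (6.25%, against 11.2% of all genes), Lcn2, rests on 1007 CPM in unligatured replicate 2, without which 5 were called higher and 0 lower by limma. There were 3 lower without ligatured replicate 2. Of 22 cholesterol synthesis genes, 6 were called higher (27.3%, against 7.45% of all genes) and 3 lower (13.6%, against 11.2%). By limma, 0 were lower without the library labelled unligatured replicate 3. The count higher was 1 without ligatured replicate 1, 4 without ligatured replicate 2 and 1 without unligatured replicate 1. Of 13 fat expansion genes, 2 were called higher (15.4%, against 7.45% of all genes). Nnat was lost without either ligatured replicate 1 or 3 or unligatured replicate 1 or 2, and Cavin2, a caveola protein gene, without ligatured replicate 3. The fit of the 12 libraries of mice fed a 60% HFD called 10 of the 13 higher, against 1561 of all 15990 genes tested there. That of the 6 libraries alone called 9 higher, against 1297 of 15270. Both gave the same median of 0.79. The count was 2 without the library labelled unligatured replicate 3 and 4 without ligatured replicate 2.

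**Figure D5:**
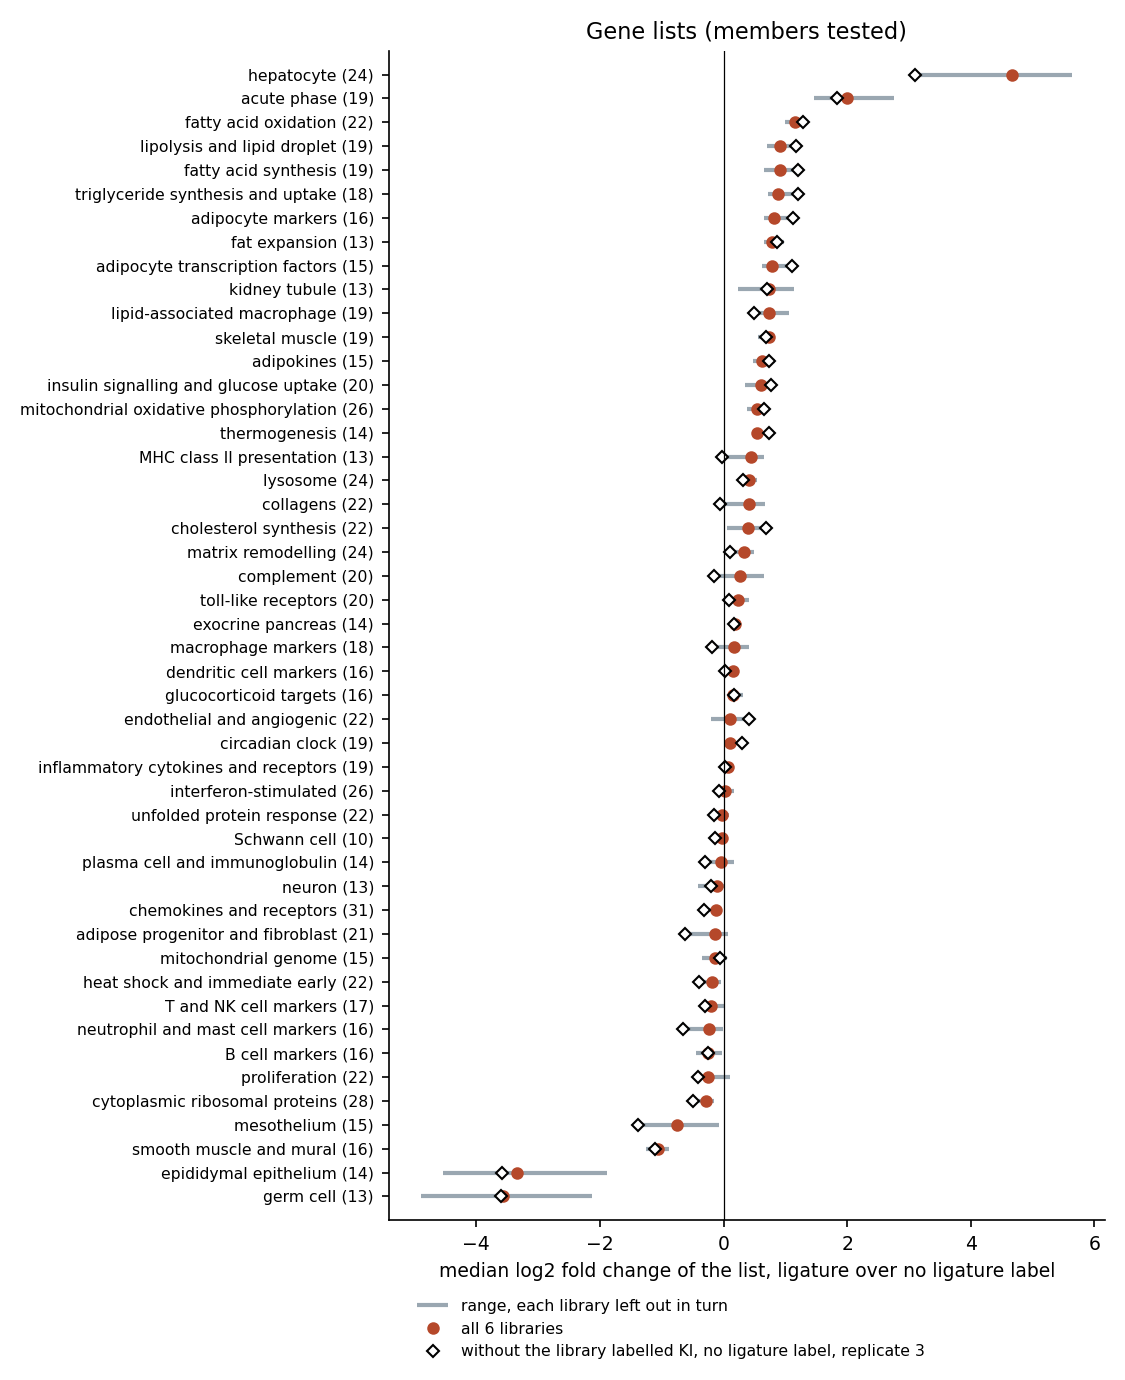
Median log2 fold change of ligatured over unligatured knock-in mice for each gene list (number of members tested in brackets), with all 6 libraries, without the library labelled unligatured replicate 3, and the range with each of the 6 left out in turn. Fatty acid oxidation has a median of 1.16 and hepatocyte genes one of 4.66, which is 3.09 without that library.

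Liver-type transcripts moved most among the higher genes. All 24 hepatocyte genes were called higher by limma (against 7.45% of all genes), with a median log2 fold change of 4.66. Most of them code for proteins that the liver secretes into blood. An adjusted p below 0.05 was reached by 0 of the 24 in limma, 1 in edgeR and 19 in DESeq2, while all 24 had an unadjusted p below 0.05 in limma. Without the library labelled unligatured replicate 3 the median was 3.09 and 4 were called, with 13 called without ligatured replicate 1 and 16 without ligatured replicate 2. Alb, the serum albumin gene, was the most abundant, at 444, 890 and 6.38 CPM without a ligature and 12270, 11120 and 1337 CPM with one, against 5796 to 24130 CPM in the 6 WT libraries. The groups do not overlap, but ligatured replicate 3 lies close to unligatured replicate 2 and under every WT library. Hnf4a, a transcription factor that defines hepatocytes, was at 9.77, 17.7 and 0.196 CPM and at 260.1, 355 and 42.6 CPM, and Hpd, a liver enzyme of tyrosine breakdown, at 15.7, 22.6 and 0.245 CPM and at 490.4, 674 and 71.9 CPM. Among the genes with the largest rises are major urinary protein genes that share reads among near-identical copies, so that the value of each copy is uncertain: Mup19 was at 6.42, 9.59 and 2.89 CPM and at 1109, 370 and 74.0 CPM, and Mup3 at 15.2, 32.0 and 0.687 CPM and at 957, 478 and 77.8 CPM. In all of these, ligatured replicate 3 was the lowest of its group, and in none did the groups overlap. Trf, the transferrin gene, which fat also expresses, was called whichever library was left out, at 1244, 1431 and 1404 CPM against 4195, 4284 and 2515 CPM. No hepatocyte gene of the list was at 0 in all libraries of either group, and how much of this signal came from fat itself was not tested.

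Acute phase proteins, which the liver releases in inflammation, followed the hepatocyte genes. Of 19, 14 were called higher (73.7%, against 7.45% of all genes) and 1 lower (Lcn2), with a median of 2.00, and 4 higher without the library labelled unligatured replicate 3, 6 without ligatured replicate 1 and 9 without ligatured replicate 2. Itih4 and Serpina3n were called in every case. Serpina3n, a protease inhibitor induced by inflammation in many tissues, was at 226, 278 and 213 CPM and at 532, 342 and 567 CPM, without overlap. Saa1, the serum amyloid gene, was at 0.739, 0.216 and 0.196 CPM and at 13.0, 15.9 and 1.71 CPM, and its call was lost without ligatured replicate 2. Hp, haptoglobin, the most abundant of the list and a product of both liver and adipocytes, was at 1908, 2005 and 740 CPM and at 3028, 2790 and 2693 CPM. Its call was lost without the library labelled unligatured replicate 3, the lowest one, or any of the 3 ligatured libraries.

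Complement was higher for a few components. Of 20 genes, 5 were called higher (25.0%, against 7.45% of all genes) and 0 lower, with a median of 0.27, against 2 and a median of -0.15 without the library labelled unligatured replicate 3. The count was 3 without ligatured replicate 1, 3 without ligatured replicate 2 and 9 without unligatured replicate 1. C4b, the C4 component shared by the antibody and lectin pathways, was at 776, 1008 and 509 CPM and at 1834, 1337 and 1875 CPM. The groups do not overlap, and the log2 fold change was 1.18 (SE 0.21, limma adjusted p of 0.00472, 3 of 3 libraries higher) or 0.91 without the library labelled unligatured replicate 3, with an adjusted p of 0.0516 when ligatured replicate 1 was left out, 2 of 2 libraries higher. Cfb, factor B of the alternative pathway, was at 395, 352 and 182.7 CPM and at 563, 549 and 565 CPM, and was not called without the library labelled unligatured replicate 3. C3, the central component, was at 4647, 3313 and 924 CPM and at 3627, 5607 and 3209 CPM, which overlap.

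The largest falls were in genes of the male tract. Of 14 epididymal genes tested of 25 in the table, 8 were called lower (against 11.2% of all genes) and 0 higher, with a median log2 fold change of -3.34, or -3.69 with the 4 genes at 0 in every ligatured library set to their bound. The count was 9 without the library labelled unligatured replicate 3 and 4 without unligatured replicate 2, and with no filter on low values it was 8 of 25, with 0 higher and a median of -3.19. Crisp1 was at 275, 199.9 and 9541 CPM without a ligature and at 1.42, 0.0555 and 0.0745 CPM with one. All unligatured libraries were far above all ligatured ones, and the WT libraries ranged from 0 to 33.4 CPM. Its log2 fold change was -9.17 (SE 2.5, limma adjusted p of 0.0322, lower in 3 of 3 ligatured libraries) and -7.39 without the library labelled unligatured replicate 3 (adjusted p of 0.094 in limma, lower in 3 of 3). The adjusted p was 0.109, 0.0736 and 0.0768 in limma without ligatured replicate 1, 2 or 3, the other 2 of 2 still lower. Adam7, a sperm-binding protein of the epididymis, was at 14.9, 1711 and 9.23 CPM and at 0, 0.222 and 0.149 CPM, and Defb42, a defensin of the same epithelium, at 14.2, 151.2 and 339 CPM and at 0.0490, 0.0555 and 0 CPM. Of the list, 9 genes were at 0 in all 3 ligatured libraries, and no gene was at 0 in all 3 unligatured ones.

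Germ cell genes fell in the same comparison. Of 13 tested, 12 were called lower (against 11.2% of all genes) and 0 higher, with a median of -3.57, or -5.09 with 6 genes at their bound. The count was 12 without the library labelled unligatured replicate 3 and 8 without unligatured replicate 1. Prm2, a protamine that packs sperm DNA, was at 253, 3.75 and 34.1 CPM and at 0, 0 and 0.0745 CPM. Unligatured replicate 1 was the highest and unligatured replicate 2 the lowest of its group, and WT libraries held 0 to 5.06 CPM. Its log2 fold change was -5.09 (SE 1.17, limma adjusted p of 0.0155, lower in 3 of 3 libraries) and -5.08 without the library labelled unligatured replicate 3, while the adjusted p was 0.0793, 0.0514 and 0.0743 in limma without ligatured replicate 1, ligatured replicate 3 or unligatured replicate 1, with all remaining ligatured libraries lower. Odf1, a protein of the sperm tail, was at 82.5, 1.51 and 95.7 CPM and at 0 in all 3 ligatured libraries, so that its mean was at least 335-fold lower, against a floor of 3 reads over the group (at least 235-fold without the library labelled unligatured replicate 3). Slc28a3, a nucleoside transporter, was at 3.35, 20.0 and 316 CPM and at 0 in the same libraries, at least 633-fold lower on the same floor, but at least 65.1-fold without the library labelled unligatured replicate 3, which holds most of it.

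Smooth muscle, which wraps the duct and the vessels, had genes called in both directions: 6 of 16 lower (37.5%, against 11.2% of all genes) and 3 higher (18.8%, against 7.45%), with a median of -1.06. Without the library labelled unligatured replicate 3 there were 4 of each. The lower count was 2 without ligatured replicate 1, 2 without ligatured replicate 2 and 1 without unligatured replicate 1, and the higher count was 2 without ligatured replicate 3, 0 without unligatured replicate 1 and 2 without unligatured replicate 2. Actg2, the actin of visceral smooth muscle, was at 144.7, 577 and 69.9 CPM and at 0.441, 0.0555 and 2.24 CPM, against 0 to 0.253 CPM in WT. The groups are far apart, and the log2 fold change was -6.74 (SE 1.91, limma adjusted p of 0.0382, lower in 3 of 3 libraries) or -7.41 without the library labelled unligatured replicate 3 (adjusted p of 0.0354). Leaving out any other library gave a limma adjusted p of 0.137, 0.0894 and 0.0696 for the ligatured ones and 0.068 and 0.0751 for unligatured replicates 1 and 2, with every remaining ligatured library lower. The genes called higher, Rgs5, Cspg4 and Abcc9, mark pericytes of small vessels. Rgs5 was at 20.2, 32.7 and 104.4 CPM and at 90.2, 64.4 and 91.9 CPM, and its overlap comes from the library labelled unligatured replicate 3.

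The mesothelium is the sheet that covers the pad. Of 15 mesothelial genes, 5 were called lower (33.3%, against 11.2% of all genes) and 0 higher (median -0.76). The count was 10 with a median of -1.39 without the library labelled unligatured replicate 3, 10 without ligatured replicate 2, and 2 to 3 without ligatured replicate 1, ligatured replicate 3, unligatured replicate 1 or unligatured replicate 2. Krt19, a keratin that duct epithelia also make, was at 143.9, 54.6 and 399 CPM and at 8.29, 53.0 and 28.7 CPM, and was called in every case, whereas the keratin genes Krt8 and Krt18 were not called without the library labelled unligatured replicate 3 or without ligatured replicate 3, Krt8 also not without ligatured replicate 1 and Krt18 also not without unligatured replicate 2. The Krt19 values do not overlap, but ligatured replicate 2 and unligatured replicate 2 differ little. The defining markers Msln, at 228, 87.9 and 33.7 CPM against 25.6, 107.4 and 59.2 CPM, and Upk3b, at 526, 188.5 and 111.5 CPM against 44.1, 286 and 125.8 CPM, overlapped and were not called with all 6 libraries, but were called lower without the library labelled unligatured replicate 3. Which tissue these transcripts came from was not tested.

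Of the genes with the smallest p named here, all but Cebpa were lower in the ligatured libraries. Cnbd2, a cyclic nucleotide binding protein gene expressed in testis, was at 19.9, 11.0 and 28.9 CPM and at 3.29, 4.16 and 2.68 CPM, against 2.08 to 3.93 CPM in WT. The groups are apart, and the log2 fold change was -2.18 (SE 0.26, limma adjusted p of 0.000155, lower in 3 of 3 libraries), with -1.87 without the library labelled unligatured replicate 3. Bspry, a scaffold protein gene of epithelia, was at 20.5, 16.7 and 33.3 CPM and at 0.638, 0.943 and 0.372 CPM, a log2 fold change of -3.85 (SE 0.61, limma adjusted p of 0.00219, lower in 3 of 3 libraries), with -3.58 without that library. St6galnac2, a sialyltransferase gene, has 2 overlapping gene IDs in the table. The one with the lower p was at 16.2, 2.02 and 5.45 CPM and at 0.0490, 0.0555 and 0.0745 CPM, which is 1 read in each ligatured library, and the more abundant one at 46.1, 66.3 and 34.8 CPM and at 3.58, 3.05 and 3.5 CPM. Their adjusted p was below 0.05 in 14 of 15 alternatives each, the fit of the 6 libraries alone being the exception, at 0.186 for Cnbd2, 0.0815 for Bspry and 0.204 for the scarcer ID of St6galnac2. Trim36, a ubiquitin ligase gene linked to sperm, and Syce2, a protein of the complex that joins paired chromosomes in meiosis, were named by the same rule. Trim36 was at 76.8, 25.2 and 55.0 CPM against 3.83, 3.5 and 2.91 CPM, and Syce2 at 19.9, 3.6 and 12.6 CPM against 2.06, 2.11 and 1.56 CPM. Cebpa was the gene of this set that was higher with the ligature. Of the 622 genes (predicted gene names aside) lower with non-overlapping groups and a mean of at least 5 CPM in the higher group, called also without the library labelled unligatured replicate 3, 305 had all 3 ligatured values inside the range of the 6 WT libraries, and 3 had all 3 unligatured values inside it. Of the 603 such genes that were higher, those counts were 189 and 2. All these genes were picked by the difference between the groups, so the counts describe them and are no test.

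Of 18 macrophage markers, 0 were called by limma in either direction (against 7.45% higher and 11.2% lower over all genes), and 0 by edgeR or DESeq2, with 0 at an unadjusted p below 0.05 in limma and a median of 0.17, and 1 lower without the library labelled unligatured replicate 3 and 1 higher without unligatured replicate 2. They summed to 2977, 3107 and 1174 CPM without and 2422, 3460 and 2451 CPM with a ligature, the lowest sum being in that library. Adgre1, which codes for the macrophage marker F4/80, was at 94.6, 137.0 and 36.9 CPM and at 132.0, 171.8 and 90.2 CPM. Of 19 genes of lipid-associated macrophages, 4 were called higher (21.1%), but these were Cd36, Plin2, Apoe and Acp5, which other cells of fat express as well. There was 1 without the library labelled unligatured replicate 3, 1 without ligatured replicate 1 and 1 without unligatured replicate 1, while the defining Trem2, at 38.6, 48.8 and 12.3 CPM against 37.7, 89.9 and 13.0 CPM, and Gpnmb, at 119.2, 242 and 26.8 CPM against 259, 483 and 59.3 CPM, overlapped. Of the inflammatory genes Tnf, Il1b, Ccl2 and Spp1, 0 were called by limma, and 0 by edgeR or DESeq2, with 0 at an unadjusted p below 0.05 in limma. Without ligatured replicate 3, Spp1 was called higher, with a log2 fold change of 1.99 against 1.32 with all libraries. Spp1, the osteopontin gene, was at 4.09, 9.88 and 1.23 CPM and at 9.81, 35.2 and 3.95 CPM, Tnf at 1.19, 0.721 and 0.344 CPM and at 1.08, 1.5 and 0.372 CPM, and Ccl2, which draws monocytes, at 12.1, 7.93 and 4.32 CPM and at 7.21, 7.27 and 3.5 CPM. All 3 overlap. Il1b was at 0.568, 0.649 and 0.785 CPM and at 0.245, 0.444 and 0.149 CPM, where each ligatured library was below each unligatured one.

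Ccr7, the receptor of the knocked-in chemokine, was at 2.22, 1.59 and 1.33 CPM and at 1.62, 1.22 and 1.12 CPM, and was not called. Ccl19 itself was called higher (log2 fold change 1.97, SE 0.61, limma adjusted p of 0.0538, higher in 2 of 3 ligatured libraries than in any unligatured one), but not without the library labelled unligatured replicate 3, where the log2 fold change was 1.15. The lists that follow stand beside 7.45% higher and 11.2% lower over all genes. Of 17 T and NK cell markers tested, 1 was called lower (5.88%), Gata3, through 432 CPM in the library labelled unligatured replicate 3, without which it was not called, while 3 others were then called lower, among them Klrb1c, through 124 CPM in unligatured replicate 2. The counts were 2 higher and 1 lower without ligatured replicate 3, and 2 lower without unligatured replicate 1. Cd3e, a subunit of the T cell receptor, was at 1.25, 1.08 and 0.834 CPM and at 0.539, 0.610 and 0.745 CPM. Of 16 dendritic cell markers, Itgae alone was called lower (6.25%), and not without ligatured replicate 2, unligatured replicate 1 or unligatured replicate 2. Of 31 chemokine genes tested, Ccl19 was called higher and Ccl12, a monocyte attractant, lower (3.23% each), at 4.32, 2.31 and 1.18 CPM against 0.196, 0.277 and 1.64 CPM, though Ccl12 was not called without unligatured replicate 1. By limma 0 were called higher and 3 lower without the library labelled unligatured replicate 3, among the latter Ccl21a, another ligand of CCR7, at 89.8, 150.6 and 10.6 CPM against 12.7, 0.388 and 44.4 CPM. Leaving out ligatured replicate 2 or unligatured replicate 2 gave 2 higher, and ligatured replicate 3 gave 3 lower. Of 19 cytokine genes, Il6ra was called higher (5.26%; lost without ligatured replicate 2 or the library labelled unligatured replicate 3), and Il33 (lost without ligatured replicate 1 or unligatured replicate 1) and Ptgs2 lower (10.5%). Ptgs2, the inducible prostaglandin synthase gene, stood at 96.0, 6.06 and 6618 CPM against 1.13, 1.44 and 5.66 CPM, and was not called without the library labelled unligatured replicate 3.

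The counts for lists of extracellular matrix and vessels stand beside 7.45% higher and 11.2% lower over all genes. Of 22 collagens, Col4a1 and Col4a2, chains of the basement membrane round each adipocyte, and Col18a1 were called higher (13.6%) and Col4a3 lower (4.55%). Col18a1 was called whichever library was left out, at 226, 241 and 252 CPM against 495, 416 and 337 CPM, while Col4a1 and Col4a2 were lost without ligatured replicate 3 or unligatured replicate 1, Col4a1 also without ligatured replicate 1, and Col4a3 without ligatured replicate 1 or unligatured replicate 2. There were 5 higher without ligatured replicate 2, and 4 higher and 2 lower without the library labelled unligatured replicate 3, where the median went from 0.41 to -0.06. Of 24 matrix remodelling genes, 3 were called higher (12.5%): Mmp11, a stromal protease that acts on collagen VI, in every case, at 11.0, 13.7 and 8.24 CPM against 23.6, 36.3 and 21.8 CPM, and Mmp19 and Adamts5, both lost without ligatured replicate 1, unligatured replicate 1 or the library labelled unligatured replicate 3, Mmp19 also without ligatured replicate 2 and Adamts5 also without ligatured replicate 3. Of 21 progenitor and fibroblast genes, 2 were called higher (9.52%) and 1 lower (4.76%), but 0 higher and 10 lower without the library labelled unligatured replicate 3, which was the lowest of all for Dcn, a proteoglycan of fibroblasts, at 3123, 2214 and 620 CPM against 1017, 2124 and 1719 CPM. The lower count was 4 without ligatured replicate 2, 2 without ligatured replicate 3 and 0 without ligatured replicate 1 or unligatured replicate 1, and the higher count 1 without ligatured replicate 2, 0 without ligatured replicate 3 and 1 without unligatured replicate 1. Of 22 endothelial genes, 2 were called higher (9.09%): Prox1, lost without ligatured replicate 1, ligatured replicate 2 or the library labelled unligatured replicate 3, and Rgcc, lost without ligatured replicate 1, ligatured replicate 3, unligatured replicate 1 or that library. Without that library, 3 other members were called higher. The count was 0 without ligatured replicate 1, 3 without ligatured replicate 2, 1 without ligatured replicate 3, 1 without unligatured replicate 1 and 3 without unligatured replicate 2.

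In other lists the counts stand beside the same 7.45% higher and 11.2% lower over all genes. Of 22 proliferation genes, 4 were called lower (18.2%) and 0 higher, among them Cdc20, which drives cells out of mitosis, at 14.3, 2.81 and 4.17 CPM against 1.32, 2.5 and 1.86 CPM, and the mitotic kinase gene Aurka, at 13.7, 2.38 and 2.85 CPM against 2.06, 3.44 and 1.56 CPM. Unligatured replicate 1 was the highest for both, and without it 0 were called by limma, where the counts were 2 without ligatured replicate 1, 2 without ligatured replicate 3 and 7 without the library labelled unligatured replicate 3. Of 19 clock genes, 1 was called higher and 1 lower (5.26% each). Rora, a nuclear receptor that drives the clock, was called higher in every case, at 67.1, 72.4 and 57.9 CPM against 119.2, 114.1 and 106.5 CPM, and Bhlhe41, a repressor of the clock, lower, at 12.5, 35.4 and 20.2 CPM against 10.8, 16.1 and 9.84 CPM, which overlap. Bhlhe41 was not called without ligatured replicate 1, ligatured replicate 3 or unligatured replicate 2, and the count higher was 2 without ligatured replicate 3, unligatured replicate 2 or the library labelled unligatured replicate 3. Of 28 genes of cytoplasmic ribosomal proteins, 1 was called lower (3.57%), with a median of -0.28. The count was 10 without the library labelled unligatured replicate 3, 4 without ligatured replicate 2 and 0 without ligatured replicate 1, unligatured replicate 1 or unligatured replicate 2. Of 19 skeletal muscle genes tested, 5 were called higher (26.3%) and 2 lower (10.5%), or 5 and 1 without the library labelled unligatured replicate 3, and the count higher was 2 and the count lower 3 without ligatured replicate 3. The count lower was 0 without ligatured replicate 1, 1 without ligatured replicate 2 and 1 without unligatured replicate 1. Atp2a1, the calcium pump of fast fibres, was called higher in every case, from 0.227, 0.144 and 0.147 CPM to 3.29, 4.88 and 7.08 CPM.

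The ligature effect was then tested against that in the other mice. In WT mice on the 60% HFD, 94 of 17852 genes (0.527%) were called between ligatured and unligatured mice, 60 of them higher (0.336%), and in knock-in mice on the 40% HFD 148 (0.829%), 52 of them higher (0.291%). The effect in knock-in mice on the 60% HFD differed from that in WT mice at 2718 genes by the same criteria (15.2%), 1178 with a higher and 1540 with a lower effect, and from that in knock-in mice on the 40% HFD at 2021 (11.3%), 826 and 1195. These tests contain the libraries of the comparison above, so their lists do not stand apart from it. An adjusted p below 0.05 in limma was reached by 2 genes (0.0112%) and 1 gene (0.0056%). Cnbd2 passed both, with a log2 difference of -2.34 from WT (SE 0.37, limma adjusted p of 0.0201, lower in 3 of 3 ligatured knock-in libraries) and -2.27 from the 40% HFD (SE 0.37, limma adjusted p of 0.0325, 3 of 3 libraries). In WT mice the log2 fold change of Cnbd2 with the ligature was 0.17 (SE 0.26), and in knock-in mice on the 40% HFD 0.10 (SE 0.26). The scarcer ID of St6galnac2 passed against WT, with a log2 difference of -2.83 (SE 0.49, limma adjusted p of 0.0348, 3 of 3 libraries lower), and the more abundant one did not, with -3.77 (SE 0.72, limma adjusted p of 0.0685, 3 of 3 libraries lower). The log2 differences from WT without the library labelled unligatured replicate 3 were -2.04 for Cnbd2 and -2.89 for the scarcer ID of St6galnac2 (limma adjusted p of 0.027 for both, lower in 3 of 3), and that of Cnbd2 from the 40% HFD was -1.97 (limma adjusted p of 0.0739, lower in 3 of 3). The more abundant ID of St6galnac2 passed against WT as well without that library, at -3.985 (limma adjusted p of 0.027, lower in 3 of 3). Without it, 1404 genes had a higher and 1775 a lower effect than in WT by the criteria above, and 755 and 1297 than on the 40% HFD. The counts are fragile: leaving out 1 of the unligatured knock-in libraries gave 30, 598 and 64 genes against WT in replicate order, 1 of the ligatured ones 0, 4 and 0, 1 of the unligatured WT ones 0, 0 and 1, and 1 of the ligatured WT ones 1, 0 and 0, and DESeq2 gave 919 where edgeR gave 1. Against the 40% HFD they were 15, 330 and 1, then 0, 2 and 0, and 0, 0 and 1 for either group of the 40% HFD, with 229 by DESeq2 and 0 by edgeR (2682 genes at an unadjusted p below 0.05). The calls against the 40% HFD numbered 1247 without ligatured 40% HFD replicate 3, 1178 without unligatured 40% HFD replicate 2 and 1335 without ligatured 60% HFD replicate 1.

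By list, the difference from WT mice was called higher at 18 of 22 fatty acid oxidation genes (against 6.6% of all genes; median log2 difference 1.63 against -0.02 over all genes), 7 of 16 adipocyte markers (1.15) and 9 of 24 hepatocyte genes (4.87), and lower at 12 of 13 germ cell genes (against 8.63%; -4.10) and 7 of 14 epididymal genes (-3.47). The difference from the 40% HFD was called higher at 11 fatty acid oxidation genes (against 4.63%; median 1.19 against -0.03 over all genes), 2 adipocyte markers (0.65) and 20 hepatocyte genes (5.58), and lower at 11 germ cell (against 6.69%; -3.64) and 6 epididymal genes (-3.34). The counts against WT in the same order without the library labelled unligatured replicate 3 were 16, 8, 2, 12 and 7, and the medians 1.69, 1.24, 3.33, -4.10 and -3.73, so that of the hepatocyte genes 2 in place of 9 were called. Against the 40% HFD they were 10, 3, 3, 12 and 5, with medians of 1.33, 0.92, 4.07, -3.63 and -3.56, and 3 in place of 20 hepatocyte genes were called. Cebpa had a log2 difference of 1.82 from WT (limma adjusted p of 0.1, 3 of 3 ligatured libraries higher), and 2.08 without the library labelled unligatured replicate 3 (limma adjusted p of 0.027, 3 of 3 libraries). With all libraries its own log2 fold changes were 1.57 in knock-in mice on the 60% HFD, -0.25 in WT mice and 0.41 in knock-in mice on the 40% HFD. Fermt2, an adaptor that activates integrins, had a log2 difference of 1.02 from WT (limma adjusted p of 0.0685, 3 of 3 libraries higher; 1.00 and 0.0349 without the library labelled unligatured replicate 3), at 102.3, 107.7 and 101.5 CPM without and 207, 130.9 and 196.4 CPM with a ligature in knock-in mice. Gstz1, an enzyme of tyrosine breakdown, and Btd, which recycles biotin, were named by the rule for the 40% HFD, with log2 differences of 1.30 and 0.92 (limma adjusted p of 0.295 and 0.287, higher in 3 of 3 ligatured libraries), or 1.35 and 0.97 without the library labelled unligatured replicate 3. Gstz1 was at 223, 289.9 and 287 CPM and at 659, 634 and 654 CPM, with the groups far apart.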

How the data were processed

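RNA of eWAT was sequenced by the authors after ribosomal RNA depletion, with Trimmomatic 0.38, RSEM 1.3.0, Bowtie2 and edgeR named in the submitters' notes. The build is given as GRCm39 there and as mm10 in the methods, and nothing here depends on it but the promoters, which are from GRCm38.p6. The deposited table holds normalized signal (CPM) for 24750 gene IDs in 36 libraries, 24626 of which (99.5%) have a GENCODE M21 symbol, and 48 share one with another ID (both IDs of St6galnac2 are given). All values (100%, tolerance 0.01) are whole multiples of the value of 1 read, and the reads recovered number 11962228 to 21581595 per library (median 15573273).

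The 17852 genes that reached a value of 1 in 3 or more libraries were tested with limma 3.58.1 in R 4.3.3 on log2 of the value plus 1, in 12 groups, with p adjusted by Benjamini-Hochberg. On recovered reads, edgeR 4.0.16 called 4043 genes (2008 with an adjusted p below 0.05) and DESeq2 1.42.0 called 4131 (3029). The scripts were tested on simulated data. Alternatives were pseudocounts of 0.1 and 5, no filter, median-of-ratios scaling, a replicate block, fits of 12 or 6 libraries and leaving out each library. Figures and tables used Python 3.11.15, pandas 2.3.3, numpy 2.4.6 and matplotlib 3.10.9.

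Genes are named if they belong to the knock-in locus, are among the 15 with the smallest p in the main comparison, are among the 12 largest rises or falls per direction that do not overlap and are called with and without the library labelled unligatured replicate 3, lead the 2 differences between effects, or belong to the 54 gene lists (923 genes). The members and lists were chosen with earlier results of these data known.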

Additional observations from a re-analysis of the deposited data

Results flagged for a closer look

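The ligature effect on Cnbd2 differed between knock-in and WT mice on the 60% HFD by a log2 difference of -2.34 (limma adjusted p of 0.0201, lower in 3 of 3 ligatured knock-in libraries), a difference between groups by a test of the difference itself. That on St6galnac2 differed by -2.83 (limma adjusted p of 0.0348, 3 of 3 libraries) by the same test for the scarcer of its 2 gene IDs, but not for the more abundant one, at -3.77 (limma adjusted p of 0.0685, 3 of 3 libraries). Without the library labelled unligatured replicate 3, the more abundant ID passed as well, at -3.985 (limma adjusted p of 0.027). Between knock-in mice on the 60% and the 40% HFD, the effect on Cnbd2 differed by -2.27 (limma adjusted p of 0.0325, 3 of 3 libraries). The high Cnbd2 values were those of the unligatured knock-in mice on the 60% HFD, at 19.9, 11.0 and 28.9 CPM. Ligatured ones held 2.68 to 4.16 CPM, WT mice on that diet 2.08 to 3.93 CPM and knock-in mice on the 40% HFD 1.97 to 3.385 CPM. The part of testis transcripts in this difference was not tested. In a library that is in no group compared but is in the limma fit of all 36, the second of the unligatured WT mice on normal diet, Ccl19 was at 19.2 CPM and Gm2564 at 41.9 CPM, above the level of the other 17 libraries labelled WT, where Ccl19 reached 4.51 CPM.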

How the results depend on the processing

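Called genes numbered 3321 and 2339 to 3699 when each library was left out in turn. The fit of the 6 libraries alone called 1991 with 15270 genes tested. Genes with an adjusted p below 0.05 in limma numbered 1011, and 27 to 1917 with a library left out, 2008 in edgeR, 3029 in DESeq2, 600 in the fit of 12 libraries and 0 in the fit of 6, where 2391 had an unadjusted p below 0.05. The cause was not tested. The difference from WT was called at 2718 genes (1895 to 3179 with a library left out; 43.3% higher, and 64.5% in the fit of 12 libraries), with an adjusted p below 0.05 at 2 (0 to 598), 1 with a pseudocount of 0.1, 1 in edgeR, 919 in DESeq2 and 11 in the fit of 12. The difference from the 40% HFD was called at 2021 (1178 to 2750), with an adjusted p below 0.05 at 1 (0 to 330), 0 with a pseudocount of 0.1 or no filter, 5 with a pseudocount of 5, 0 in edgeR and 229 in DESeq2. With the replicate number as a block, the counts of calls were 3295, 2661 and 1956, and those with an adjusted p below 0.05 were 1016, 7 and 2. Same-numbered libraries gave no hint of pairing, with correlations of -0.13, 0.11 and 0.10.

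Alternatives added after seeing the data kept the 17852 genes in the smaller fits. The fit of 12 then gave 482 genes with an adjusted p below 0.05, and 9 for the difference from WT, and the fit of 6 called 2154, with 0 by the adjusted p of limma (2586 at an unadjusted p below 0.05). Leaving out the WT library with knock-in levels of Ccl19, also added then, called 3353, 2794 and 2139, with 1380, 77 and 14 by the adjusted p.

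Of 703 values of 47 named genes, 690 stayed on their side of the criteria for a call (unadjusted p and ratio), 8 were weaker, 5 stronger and 0 reversed. Most of these genes were chosen by such calls, so this is no sign of stability. By the adjusted p in place of the call, Ccl19 and Mup19 passed in 2 of 15 alternatives, Hpd in 3 and Crisp1 in 10. Each group holds 3 libraries, and 1 unligatured library has WT levels of the knock-in genes. Every limma fit here gives each gene 1 spread for all groups of the fit, also when fewer libraries are left in a group. The unligatured knock-in libraries were less alike (correlations of 0.862 to 0.898) than the ligatured ones (0.957 to 0.98). The SE and p of limma can therefore understate the spread of the unligatured group. No sham operation is labelled, cell numbers were not measured, and genes of epididymis, testis and liver moved with the groups. At 1 read per 0.0490 to 0.0745 CPM, values under a floor of 0.147 to 0.224 CPM, depending on the library, rest on fewer than 3 reads.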
